A study of Mus musculus with 753 samples.

Results

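The cells described here are upper hair follicle keratinocytes that carry the *Gata6* lineage mark, taken from skin wounds 9 and 11 days after injury (late wounds) and from unwounded skin (day 0). A cell was included if the authors' annotation gave it the identity uHF-I (one of 3 upper follicle identities) and lineage-positive status (lin+), and if it came from day 0, 9 or 11. These rules gave 70 cells, 36 from late wounds and 34 from day 0, out of 258 lin+ cells of those days and 684 annotated cells in all. The mice were Gata6EFGPCreERT2 Rosa26-fl/STOP/fl-tdTomato, Cre (+/-) and tdTomato (+/-). Topical 4-hydroxytamoxifen on the back of adult animals switched on tdTomato in cells that were expressing *Gata6* at that time, and their progeny kept the colour. Late-wound cells came from full-thickness wounds made a week later, while day 0 cells came from back skin away from the wound, so all groups share the alleles and the tamoxifen. Because the mark is driven by the *Gata6* locus, lin+ records past *Gata6* expression and not present expression. Suspensions had been mixed with green epidermal cells of CAGGS eGFP mice as carrier, which were then sorted away. Each day has 2 replicates, and at days 9 and 11 a replicate was 1 mouse. By the methods of the study the unwounded skin came from these wounded mice, but the labels do not say which, so the sets were fitted as independent.

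The upper part of the hair follicle holds the junctional zone, the infundibulum and the duct that drains the sebaceous gland. Cells of the duct line a canal and are differentiated; *Krt79* (a keratin of this canal), *Cst6* (a cysteine protease inhibitor), *Defb6* (an antimicrobial defensin) and the transcription factor *Gata6* are characteristic of them. After full-thickness injury, cells of the upper follicle can leave it and enter the new epidermis, where they come to lie among basal cells that carry *Krt14* and *Krt5*. The comparison asked how uHF-I cells that were still assigned to the follicle differed between late wounds and unwounded skin.

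Sets of cells, not single cells, were the unit of comparison. A set is the uHF-I lin+ cells of 1 day and 1 replicate. The sets held 17 cells at day 0, 8 at day 9 and 6 at day 11 in the first batch, and 17, 11 and 11 in the second, so each passed the minimum of 5 cells. Replicate 1 is the first batch of the annotation and replicate 2 the second. First-batch cells were deposited as read counts and second-batch cells as RPKM (reads scaled to gene length and library size), so levels are given in ppm (parts in 1000000 of a cell's total) within each batch and are never compared between batches or between genes. Median reads per cell were 4504897, 5601917 and 4919072 at days 0, 9 and 11 of the first batch and 2784677, 2366032 and 2274014 at those of the second. The share of a cell's total taken by ribosomal RNA, *Malat1* and *Neat1* had medians of 22.4% at day 0, 11.9% at day 9 and 12.4% at day 11 in the first batch, and 2.91%, 0.704% and 0.579% in the second, lower in both late sets of each batch. Median genes per cell, after thinning each cell to 800000 reads over 17447 genes, were 1461, 2178.5 and 1619 at days 0, 9 and 11 of the first batch and 1855, 2256 and 2568 at those of the second (without thinning 1632, 2498.5 and 1770.5, and 2145, 2451 and 2752). Thus at an equal number of reads more genes were read in late cells than in day 0 cells of the same batch.

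The identity was checked against markers. In uHF-I cells *Krt79* had a mean between 1804 and 12690 ppm in the 6 sets. In lin+ cells of the same mice annotated as basal interfollicular epidermis (IFE-B) it lay between 13.5 and 561 ppm. The identity was assigned from these genes, so this is a description. The marker lists of fibroblasts, leukocytes, melanocytes and endothelial cells each summed to no more than 7.49 ppm in any set, and the sort had used an antibody to the leukocyte protein CD45. The sum over Langerhans cell genes lay between 404 and 1333 ppm in late sets and at 661 and 1752 at day 0. *Epcam*, which follicle keratinocytes also express, made up 255 to 746 ppm of it in late sets and 624 and 1557 at day 0, and *Cd74* 35.0 to 666 in late sets and 37.1 and 141 at day 0; their part in the results was not tested. The outer bulge list, which contains *Krt15*, summed to 880 to 8753 ppm in late sets and to 11392 and 7310 at day 0. The IFE basal list, which contains *Krt14*, summed to 27244 to 43087 ppm in late sets and to 16347 and 26158 at day 0. In the deposited clustering, day 0 uHF-I cells fell mostly in cluster 3 (9 and 9 of 17) and cluster 2 (5 and 4 of 17), whereas at day 11 they fell in cluster 0 (3 of 6 and 9 of 11) and cluster 3 (3 of 6 and 2 of 11) and none fell in cluster 2.

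The share of lin+ cells with the identity uHF-I was lower in each late set than in either day 0 set, a difference that this number of sets cannot take past 0.05. At day 0 it held 17 of 47 lin+ cells in replicate 1 (36.2%, exact 95% binomial interval 22.7–51.5) and 17 of 46 in replicate 2 (37.0%, 23.2–52.5). At day 9 it held 8 of 42 (19.0%, 8.60–34.1) and 11 of 44 (25.0%, 13.2–40.3). At day 11 it held 6 of 32 (18.8%, 7.21–36.4) and 11 of 47 (23.4%, 12.3–38.0). The mean was 21.6% ± 3.13 (SD, n = 4) in late wounds against 36.6% ± 0.556 (SD, n = 2) at day 0. The difference was −15.0 percentage points, and −17.3 and −12.8 within the first and second batch. The exact permutation p (2-sided) was 0.133, the smallest that 4 sets against 2 can give. With uHF-I, uHF-II and uHF-III pooled the difference was −6.73 points (exact permutation p = 0.533), and at day 9 the pooled identities held 23 of 44 lin+ cells of replicate 2 (52.3%), more than at day 0 of either replicate (42.6% and 43.5%). The intervals cover counting error only. By the paper the sort also separated cells by their level of the integrin Itga6, and the sample titles do not give that level. The part of the sort in these shares was not tested, so they were not read as shares in tissue.

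**Figure D1:**
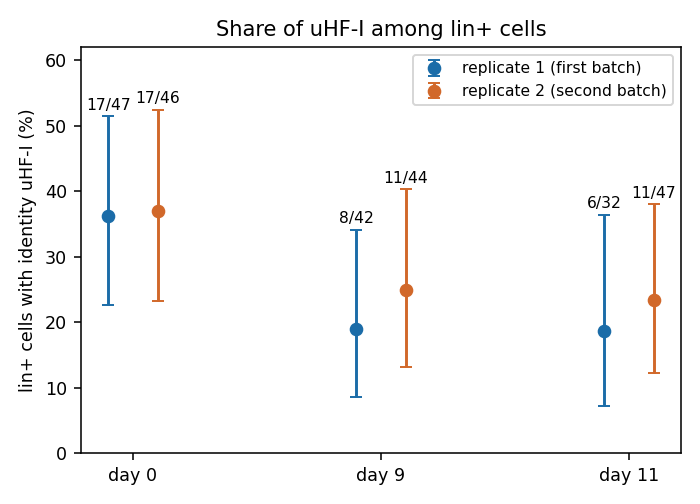
Share of lin+ cells with the identity uHF-I (y axis, %) at days 0, 9 and 11 (x axis). Each point is 1 replicate, bars are exact 95% binomial intervals and the fractions are cells counted; the 4 late points lie between 18.8% and 25.0%, and those of day 0 at 36.2% and 37.0%.

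Within uHF-I cells, no single gene passed the test between late wounds and day 0. Across 7249 genes with at least 10 ppm in at least 2 sets, limma with batch as a covariate called 0 genes higher (0.0%) and 0 lower (0.0%) at an adjusted p of 0.05, and the smallest adjusted p was 0.120. At an unadjusted p under 0.05 there were 241 genes higher (3.32%) and 174 lower (2.4%), 5.72% together. edgeR on recovered reads also called 0 of 7237 genes, with 121 higher and 77 lower at an unadjusted p under 0.05. Without batch in the limma fit *Igfl3* and *Mapk13* passed, and with sets weighted by their number of cells *Malat1* and *Mapk13* passed. The standard error of a log2 fold change had a median of 1.64 over all genes and of 0.77 over the 1014 genes read in at least 35 of the 70 cells. Taken day by day, limma called 0 genes for day 9 (209 higher, 2.88%, and 152 lower, 2.1%, at an unadjusted p under 0.05) and 0 for day 11 (290 higher, 4.0%, and 192 lower, 2.65%). Both days were set against the same day 0 cells. Fold changes below are log2 of ppm plus 1, late minus day 0, with SE, and p values adjusted over all genes tested. Since nothing passed, they are given as values.

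**Figure D2:**
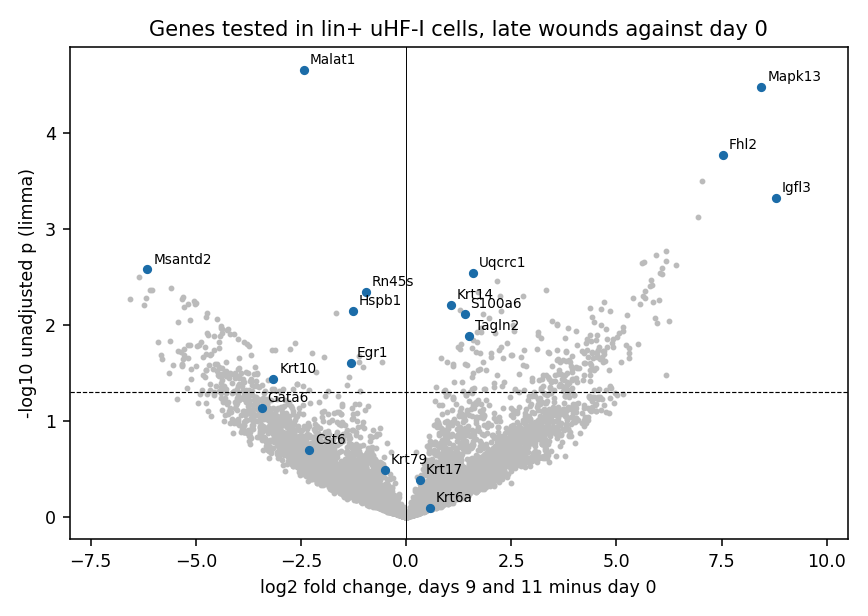
Every gene tested in lin+ uHF-I cells, with the log2 fold change of days 9 and 11 over day 0 on the x axis and −log10 of the unadjusted limma p on the y axis; the dashed line is p = 0.05. Blue points are named genes; *Malat1* and *Mapk13* stand highest, both with an adjusted p of 0.120, and *Krt6a*, *Krt17* and *Krt79* lie near the bottom.

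Among the genes that mark the duct, *Krt79*, *Cst6* and *Defb6* had their lowest levels at day 11 in each batch, and none of these differences passed the test. The identity was assigned from such genes, so these levels describe cells that were selected by them. The 14 upper follicle and sebaceous duct genes summed to 46578 ppm at day 0, 41618 at day 9 and 17571 at day 11 in the first batch, and 32454, 38944 and 16805 in the second. In each batch the day 11 sum lay below those of days 0 and 9. Most of each day 0 sum came from *Krt79*, *Cst6* and *Defb6*, so the sum is not a separate result from theirs. *Krt79* (chromosome 15, 101929332–101940324, GRCm38 as in all positions here) had 12690, 10820 and 6725 ppm at days 0, 9 and 11 of the first batch and 4645, 6492 and 1804 ppm at those of the second. The median cell had 10209 ppm at day 0, 9207 at day 9 and 2765 at day 11 in the first batch, and 5061, 5239 and 1188 in the second. *Cst6* (chromosome 19, 5344705–5349574) had 24395, 16001 and 164 ppm at days 0, 9 and 11 of the first batch and 8596, 8418 and 3354 ppm at those of the second. At day 11 the *Cst6* level of the median cell was 0 in replicate 1 and 307 ppm in replicate 2, against 5918 and 4520 at day 0. The log2 fold change of day 11 over day 0 was −4.28 ± 1.22 for *Cst6* and −1.14 ± 0.32 for *Krt79* (limma adjusted p 0.738 for both), and that of day 9 was −0.32 and 0.13.

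*Defb6* had 5724, 3187 and 2912 ppm at days 0, 9 and 11 of the first batch and 16112, 19792 and 8023 ppm at those of the second. *Gata6* itself was sparse. It was read in 7 of 36 late cells and 12 of 34 day 0 cells (6 and 11 after thinning), at 180 ppm at day 0, 0.0772 at day 9 and 4.18 at day 11 in the first batch, and 65.6, 63.7 and 28.8 in the second, and its late fold change of −3.43 ± 1.65 had a 95% interval of −7.28 to 0.42 and was −0.60 without replicate 1 of day 0 and −6.26 without replicate 2 of day 0. *Alox12e*, an epidermal lipoxygenase, was higher in all 4 late sets than in the day 0 set of their batch, and had 2049, 10128 and 5284 ppm at days 0, 9 and 11 of the first batch and 1693, 3286 and 2116 ppm at those of the second (1.24 ± 0.40). *Klk10*, a kallikrein protease, had no read at day 0 and was read in 5 late cells, at least 6728-fold higher in pooled late reads against a limit of 3 reads over the day 0 group, a bound that covers counting error only, since amplified reads are not independent molecules. Over the list 13 genes were tested, of which 6 had a positive and 7 a negative late fold change, with a median of −0.51 against −0.08 over all genes, and 0 passed. At an unadjusted limma p under 0.05 there were 2 higher and 0 lower (all genes 3.32% and 2.4%). In 5 genes all late sets lay above day 0 and in 4 all lay below, against 9.33% and 12.7% of all genes.

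**Figure D3:**
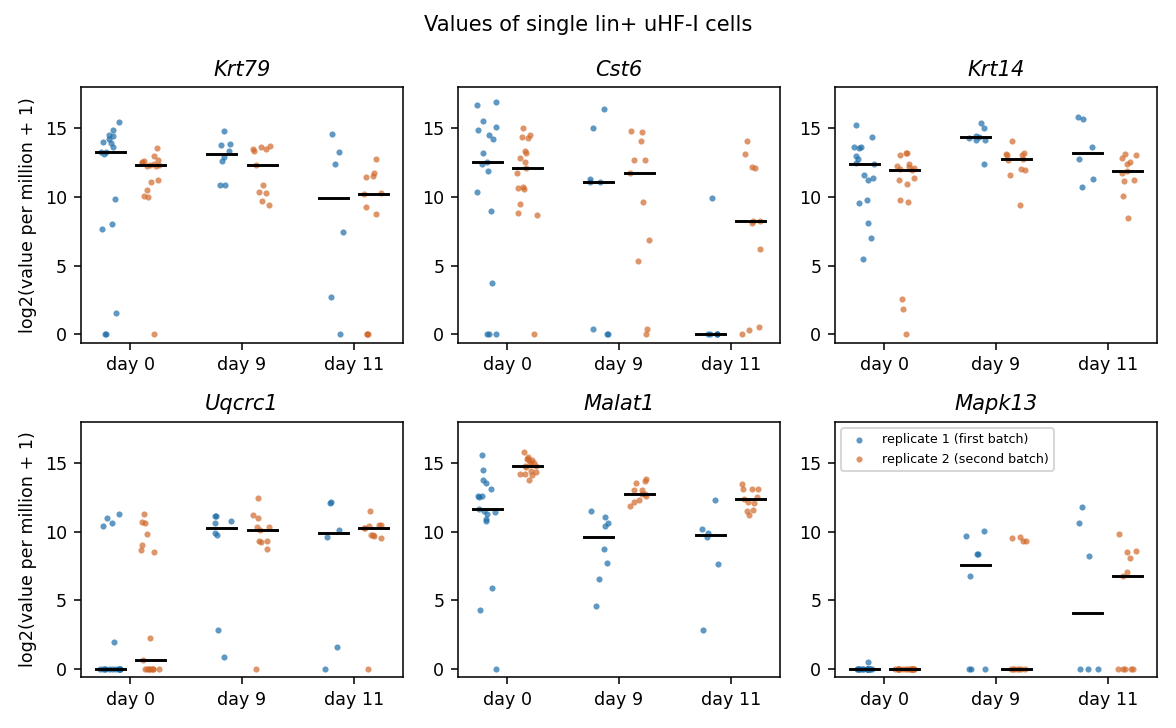
Values of the 70 lin+ uHF-I cells as log2 of ppm plus 1 (y axis) at days 0, 9 and 11 (x axis), blue for replicate 1 and orange for replicate 2; each point is a cell and each black bar the median of its set. *Krt79* and *Cst6* medians are lowest at day 11, *Malat1* medians are lower at days 9 and 11 than at day 0 in both batches, and *Uqcrc1* medians are 0 and 0.562 ppm at day 0 and at least 966 ppm in all 4 late sets.

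Wound keratins differed in where they were high. *Krt6a* and *Krt6b*, near-identical genes whose reads can be hard to assign, and *Krt16* and *Krt17* are keratins that keratinocytes switch on after injury. *Krt6a* had 77.1, 64.1 and 1745 ppm at days 0, 9 and 11 of the first batch and 28.5, 0.0962 and 208 ppm at those of the second. It was read in 16 of 36 late cells and 6 of 34 day 0 cells (15 and 6 after thinning), and its late fold change was 0.57 ± 2.23 (95% interval −4.64 to 5.78), which turned to −0.97 without replicate 1 of day 0, −0.66 without replicate 1 of day 11 and −0.83 without replicate 2 of day 11. *Krt6b* had 24.0 ppm at day 0, 11.5 at day 9 and 369 at day 11 in the first batch, and 0.0513, 0.258 and 12.4 in the second, so both of these genes were highest at day 11 in each batch. *Krt16* had 54.6, 390 and 1924 ppm at days 0, 9 and 11 of the first batch and 23.2, 17.9 and 15.9 ppm at those of the second, higher in late sets of the first batch alone. *Krt17*, which upper follicle cells already express in intact skin, had 14483 ppm at day 0, 12962 at day 9 and 8426 at day 11 in the first batch, and 3333, 6599 and 7826 in the second, with a fold change of 0.32 ± 0.37 (interval −0.54 to 1.18). All 4 keratins had a positive late fold change, with a median of 1.14, and 0 passed. For 0 of the 4 did all late sets lie above the day 0 set of their batch.

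Of the basal keratins, *Krt14* had a higher mean in every late set, though it did not pass the test, and *Krt5* and *Krt15* did not. *Krt14* (chromosome 11, 100203162–100207510), the keratin of basal cells, had 7926, 22825 and 22622 ppm at days 0, 9 and 11 of the first batch and 3782, 7211 and 4548 ppm at those of the second. In the first batch the median cell had 5558, 21041 and 9988 ppm at days 0, 9 and 11. In the second it had 4116, 7030 and 3895 ppm, so there the day 11 median lay below that of day 0. The fold change of the set means of *Krt14* was 1.06 ± 0.28 (95% interval 0.40 to 1.72, limma adjusted p = 0.806). It was read in 36 of 36 late cells and 33 of 34 day 0 cells. Its partner *Krt5* had 2713 ppm at day 0, 1077 at day 9 and 4041 at day 11 in the first batch, and 1177, 618 and 2712 in the second, on both sides of day 0. *Krt15*, a keratin of bulge and basal cells, had 10784, 561 and 7956 ppm at days 0, 9 and 11 of the first batch and 6525, 5011 and 3535 ppm at those of the second (−1.49 ± 0.94). *Itga6*, the integrin used in the sort, was read in 7 late cells and 2 day 0 cells and had 0.67 ± 1.92. Of the 16 basal keratin, integrin and hemidesmosome genes tested, 5 had a positive fold change and the median was −0.54. Of the 7 IFE basal markers tested, *Krt14* included, 6 had a positive fold change, and 1, *Krt14*, was above day 0 in all 4 late sets.

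Genes of suprabasal differentiation did not share a direction. Of 15 tested 7 had a positive fold change, near the 48.2% of all genes, and the median of −0.43 changed sign without replicate 1 of day 0 (0.30 above that of all genes). The list summed to 13919, 20967 and 10432 ppm at days 0, 9 and 11 of the first batch and 10211, 22434 and 13717 ppm at those of the second, higher than day 0 in 3 of 4 late sets. *Calm4*, an epidermal calcium-binding protein, had 376, 313 and 2338 ppm at days 0, 9 and 11 of the first batch and 676, 3075 and 2395 ppm at those of the second (1.59 ± 0.74). *Krt10*, the keratin of suprabasal epidermis, had 337 ppm at day 0, 9.22 at day 9 and 14.5 at day 11 in the first batch, and 254, 277 and 26.0 in the second (−3.15 ± 1.24, 95% interval −6.05 to −0.26). *Krt77* had 69.1, 12.6 and 0.0342 ppm at days 0, 9 and 11 of the first batch and 271, 228 and 0 ppm at those of the second, and was read in 7 late cells and 16 day 0 cells (6 and 15 after thinning). *Sbsn*, a secreted suprabasal protein, had 1357 ppm at day 0, 703 at day 9 and 195 at day 11 in the first batch, and 544, 505 and 217 in the second. Thus *Krt77* and *Sbsn* were lowest at day 11 in both batches. Of 6 cornified envelope genes tested 0 had a positive fold change (median −0.66). Most cornified envelope genes, 14 of 20, did not reach the minimum level.

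Nuclear-encoded genes of the respiratory chain, whose products make up the electron transport complexes and ATP synthase of mitochondria, were higher in late sets in 27 of the 29 genes tested, against 48.2% of all genes with a positive fold change. Their median was 0.57 (all genes −0.08). In 14 of the 29 all 4 late sets lay above the day 0 set of their batch, which held for 9.33% of all genes, and in 0 did all 4 lie below, which held for 12.7% of all genes. At an unadjusted p under 0.05 there were 6 higher and 0 lower, and none passed after adjustment. The list summed to 9913, 16096 and 14051 ppm at days 0, 9 and 11 of the first batch and 14968, 24294 and 23193 ppm at those of the second, so the late sums lay above the day 0 sum of their batch. *Uqcrc1* (chromosome 9, 108936648–108949641), a core subunit of complex III, had 446 ppm at day 0, 1211 at day 9 and 1820 at day 11 in the first batch, and 476, 1453 and 1173 in the second. Its fold change was 1.59 ± 0.37 (95% interval 0.74 to 2.45, limma adjusted p = 0.806). It was read in 33 of 36 late cells and in 14 of 34 day 0 cells, and after thinning in 32 and 13.

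Other members showed the same order. *Atp5g3*, a subunit of the membrane ring of ATP synthase, had 94.7, 110 and 314 ppm at days 0, 9 and 11 of the first batch and 30.8, 870 and 714 ppm at those of the second (2.80 ± 0.93). The complex I genes *Ndufv1* (2.86 ± 1.04) and *Ndufa2* (1.14 ± 0.46) and the complex IV gene *Cox4i1* (0.71 ± 0.29) were higher in all 4 late sets. The 2 negative members were *Ndufs1* (−2.22 ± 1.49) and *Uqcrb* (−0.76 ± 0.89). The late cells had more genes read per cell at equal depth and a lower share of ribosomal RNA, and the part of these in the values was not tested. With totals that leave out ribosomal RNA, *Malat1* and *Neat1*, the list median was 0.48 and that of all genes −0.17.

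**Figure D4:**
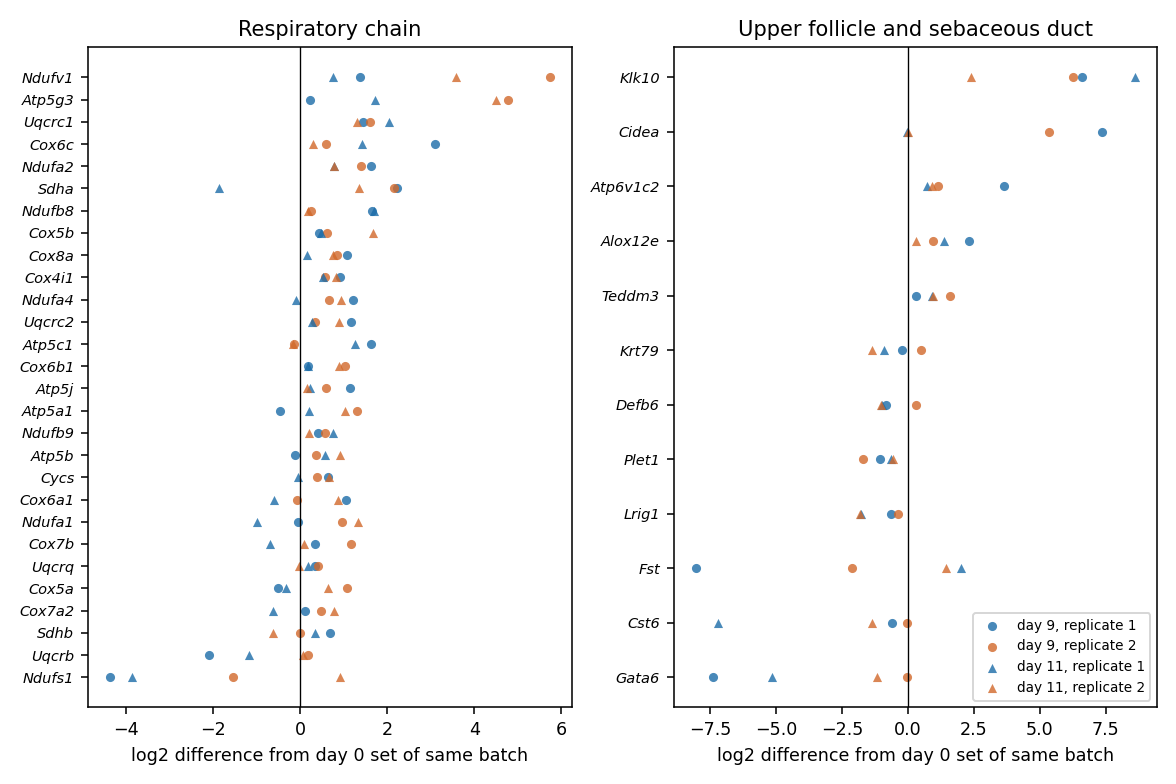
Log2 difference (x axis) of each late set from the day 0 set of its batch for 28 respiratory chain genes (left) and 12 upper follicle and sebaceous duct genes (right) of those tested, ordered by late fold change; circles are day 9, triangles day 11, blue replicate 1 and orange replicate 2. For 13 of the respiratory chain genes drawn all 4 points lie above 0; among follicle genes *Cst6* lies furthest below 0 at day 11.

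Glycolysis genes had a median of 0.60, and 12 of 15 tested were positive. The median less that of all genes was 0.68, but 0.037 without replicate 1 of day 0 and 0.13 in the second batch alone, and 2 of the 15 genes were above day 0 in all late sets (all genes 9.33%). *Eno1* had 138 ppm at day 0, 415 at day 9 and 233 at day 11 in the first batch, and 60.2, 212 and 262 in the second (1.56 ± 0.61), and was read in 33 late cells and 17 day 0 cells (32 and 17 after thinning). *Aldoa* had 674, 1896 and 1465 ppm at days 0, 9 and 11 of the first batch and 397, 555 and 498 ppm at those of the second (0.85 ± 0.40). Both enzymes act in glycolysis, and these were the 2 above day 0 in all late sets. Among metallothionein, ferritin and antioxidant genes 19 of 22 were positive (median 0.56), with 2 above day 0 in all 4 late sets and 2 below, near the 9.33% and 12.7% of all genes. The median less that of all genes was 0.64, but 0.042 without replicate 1 of day 0 and 0.11 in the second batch alone. *Mt2*, a metal-binding protein, had 2.90 ± 1.31 and *Gpx2*, a glutathione peroxidase, 1.84 ± 0.78, whereas *Gstm1*, a glutathione transferase, had −1.36 ± 0.53.

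Genes of the actin cytoskeleton, which keratinocytes remodel when they migrate, had 18 of 29 positive with a median of 0.21. *Tagln2*, an actin-binding protein, had 227 ppm at day 0, 675 at day 9 and 645 at day 11 in the first batch, and 121, 321 and 355 in the second (1.51 ± 0.46). Reads were found in 30 of 36 late cells and 11 of 34 day 0 cells (29 and 11 after thinning). *Pfn1*, profilin, had 0.69 ± 0.31, and 6 of the 29 genes were above day 0 in all late sets while 3 were below (all genes 9.33% and 12.7%). *S100a6*, a calcium-binding S100 protein, had 872, 2009 and 1680 ppm at days 0, 9 and 11 of the first batch and 678, 1589 and 3112 ppm at those of the second (1.39 ± 0.39). In the other lists *Atf4*, a stress-response transcription factor, had 3.13 ± 0.94 and was read in 11 late cells and 3 day 0 cells. Its list, heat shock and unfolded protein response, had 8 of 19 genes positive and a median of −0.16. The protease *Klk8* had 4.41 ± 1.24 and was read in 11 late cells and 2 day 0 cells. Its list, plasminogen activators, serpins and proteases, had 3 of 6 genes positive and a median of −0.073.

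Immediate early and AP-1 genes, which dissociation as well as injury can switch on, had a median of −0.63, with 5 of 20 positive, and the median less that of all genes was 0.24 without replicate 2 of day 0. In 3 of the 20 all late sets lay above day 0 and in 1 all lay below, against 9.33% and 12.7% of all genes. *Ier3*, an immediate early response gene, had 73.8, 752 and 108 ppm at days 0, 9 and 11 of the first batch and 82.8, 190.5 and 319 ppm at those of the second (1.75 ± 0.86). *Fosl1*, an AP-1 subunit, was read in 5 late cells and 1 day 0 cell (3 and 0 after thinning) and had 2.57 (95% interval −0.93 to 6.07). *Egr1*, a transcription factor of this class, had 884 ppm at day 0, 298 at day 9 and 417 at day 11 in the first batch, and 636, 321 and 204 in the second (−1.32 ± 0.47). *Dusp1*, a phosphatase of MAP kinases, had 1261, 1471 and 1096 ppm at days 0, 9 and 11 of the first batch and 3881, 765 and 853 ppm at those of the second, so its late sets lay far below day 0 in the second batch only. *Atf3* had 223 ppm at day 0, 764 at day 9 and 63.2 at day 11 in the first batch, and 1237, 388 and 283 in the second. *Hspb1*, a small heat shock protein (chromosome 5, 135887919–135889563), had 2830, 1055 and 1020 ppm at days 0, 9 and 11 of the first batch and 1645, 962 and 630 ppm at those of the second, lower in every late set (−1.26 ± 0.34, 95% interval −2.07 to −0.46, limma adjusted p = 0.806). *B2m*, the light chain of MHC class I, had −0.57 ± 0.20 and *Epcam* −1.13 ± 0.40. The list that holds *B2m*, MHC class I and interferon genes, was split, with 6 of 12 positive, 6 negative and a median of 0.035.

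Regulators of growth, fate and stemness differed in sign. *Myc*, which drives growth and ribosome production, had 166 ppm at day 0, 51.2 at day 9 and 98.0 at day 11 in the first batch, and 360, 185 and 446 in the second (−0.77 ± 0.69, 95% interval −2.38 to 0.85), and was read in 18 late cells and 12 day 0 cells (17 and 12 after thinning). *Gata3*, a factor of epidermal differentiation, had 4.80, 107 and 70.1 ppm at days 0, 9 and 11 of the first batch and 108, 141 and 810 ppm at those of the second (2.78 ± 1.01), above day 0 in all late sets. The list that holds *Myc*, *Gata3* and *Hspb1*, Myc and ribosome biogenesis, had 7 of 17 genes positive, 10 negative and a median of −0.41. In 2 of its genes all late sets lay above day 0 and in 4 all lay below (all genes 9.33% and 12.7%). The stem cell regulator *Lrig1* had 84.0 ppm at day 0, 53.7 at day 9 and 24.0 at day 11 in the first batch, and 19.9, 15.3 and 5.01 in the second (−1.14 ± 1.18). Of single cells, 10 late and 12 day 0 cells had a read (9 and 12 after thinning). A list of 35 genes was taken from those the study names for lin+ cells, and does not hold every gene it names. Of these 33 could be tested here, 4 had an unadjusted limma p under 0.05 (all genes 5.72%) and 0 passed. The 17 of them not described singly lay between −2.04 and 2.50, with standard errors of 0.42 to 2.25. *Lgr5* and *Cd34* did not reach the minimum level.

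The smallest p values belonged to the nuclear RNA *Malat1* and to genes read in few cells. *Malat1* (chromosome 19, 5795690–5802672), a long non-coding RNA that stays in the nucleus, had 8340, 1098 and 1375 ppm at days 0, 9 and 11 of the first batch and 30348, 8138 and 6076 ppm at those of the second. The late fold change was −2.44 ± 0.26 (95% interval −3.04 to −1.83, limma adjusted p = 0.120). In the second batch single cells spanned 14286 to 56596 ppm at day 0, 3810 to 14337 at day 9 and 2351 to 11671 at day 11, so day 0 and late cells overlapped only at the edge. In the first batch they overlapped widely, with 0 to 49875 ppm at day 0, 23.2 to 2899 at day 9 and 6.16 to 5101 at day 11. IFE-B cells of the same mice gave −2.55 ± 0.34, and the difference between the identities was 0.11 ± 0.36. *Rn45s*, the precursor of ribosomal RNA, had −0.95 ± 0.24 in uHF-I cells, and *Rn18s*, mature ribosomal RNA, −1.11 ± 0.38.

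*Mapk13* (chromosome 17, 28769286–28778704), which encodes the p38 delta kinase of keratinocytes, had 0.0238 ppm at day 0, 333 at day 9 and 912 at day 11 in the first batch, and 0, 256 and 199 in the second. It was read in 18 of 36 late cells and in 1 of 34 day 0 cells, and after thinning in 18 and 0. Pooled over cells there were 46343 reads in late wounds and 2 at day 0, and the ratio of ppm was 24687 with an exact 95% counting interval of 6834 to 203853, which ignores amplification and the spread between mice. The fitted fold change, which depends on the 1 added before the log2, was 8.45 ± 0.96 (limma adjusted p = 0.120). The actin-associated protein gene *Fhl2* was read in 12 late cells and 0 day 0 cells, with 338 and 160 ppm at day 9 and 316 and 67.9 at day 11. Against a limit of 3 reads over the day 0 group, *Fhl2* was at least 7329-fold higher in pooled late reads, a bound for counting error only. *Igfl3*, read in 8 late cells and 0 day 0 cells, had 369 and 2998 ppm at day 9 and 533 and 63.8 at day 11, at least 18843-fold higher by the same limit, again for counting error only.

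Other genes named by the same rule at the higher end were *Wdr18*, *Med30*, *B4gat1*, *Rtca*, *Pold2*, *Snapc3*, *Dera* and *Fam81a*, each read in 6 to 12 late cells and in 0 to 3 day 0 cells. At the lower end, besides *Malat1* and *Rn45s*, stood *Msantd2*, *Fam174a*, *Ercc3*, *Plxdc1*, *Psmg3*, *Unc13b*, *Pcgf5*, *Pccb*, *Mrm1* and *Kif16b*, each read in 0 to 2 late cells and in 2 to 6 day 0 cells. *Msantd2*, for example, had 56.8 and 86.5 ppm at day 0 from 4 cells and no read in late wounds. Such genes were chosen by the rule from all genes tested, and 0 of them passed.

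The late difference in uHF-I cells was then set against that in lin+ cells annotated as IFE-B, with the mouse set as block. At day 0 this identity held 23 of 47 lin+ cells in replicate 1 and 21 of 46 in replicate 2. In sections of unwounded skin, however, the paper detected no lin+ cells in the basal layer. It reports low *Itga6* in nearly all day 0 cells, and states that the few high in *Itga6* could be lineage-negative contaminants with an IFE-B signature. The part of such cells in this comparison was not tested. Of 9728 genes limma called 0 as differing (0.0% higher and 0.0% lower in uHF-I), with 177 (1.82%) higher and 548 (5.63%) lower at an unadjusted p under 0.05, 7.45% together. The median difference over all genes was −0.60, and the late fold change had a median of −0.08 over the 7249 genes tested in uHF-I cells and 0.56 over the 8429 tested in IFE-B cells. In IFE-B cells 1291 genes (15.3%) were higher and 234 (2.78%) lower at an unadjusted p under 0.05, and 2 passed (0.0237%), both higher. The chemokine *Ccl27a* had the smallest error among the 12 genes named for this difference, 1.80 ± 0.33 (adjusted p = 0.585). In uHF-I cells it had 2610, 13895 and 5444 ppm at days 0, 9 and 11 of the first batch and 6964, 8682 and 4734 ppm at those of the second, and its late fold change was 0.81 in uHF-I against −0.99 in IFE-B cells.

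*Mapk13*, *Dera*, *Ppic*, *Wdr18* and *Med30* also headed the higher end of this difference. *Mapk13* differed by 6.22 ± 1.06, with a fold change of 2.23 in IFE-B cells, where it was already read at day 0. At the lower end were *Mrm1*, *Psmg3*, *Fam174a*, *Rdh11*, *Ctsd* and *Sh2b1*. *Ctsd*, the lysosomal protease cathepsin D, had 0.23 ± 0.48 in uHF-I cells against 3.42 ± 0.44 in IFE-B cells, a difference of −3.19 ± 0.69 (adjusted p = 0.635). *Krt79* had −0.51 in uHF-I against 2.79 in IFE-B cells, a difference of −3.30 ± 1.28 (limma adjusted p = 0.635). The identities were assigned from such marker genes, so this difference is a description only. *Krt14* differed by −0.40 ± 0.25 and *Uqcrc1* by 0.22 ± 0.41. The respiratory chain list had a median difference of 0.12 and 12 of 29 genes below 0, and its late median was 0.57 in uHF-I and 0.46 in IFE-B cells.

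**Figure D5:**
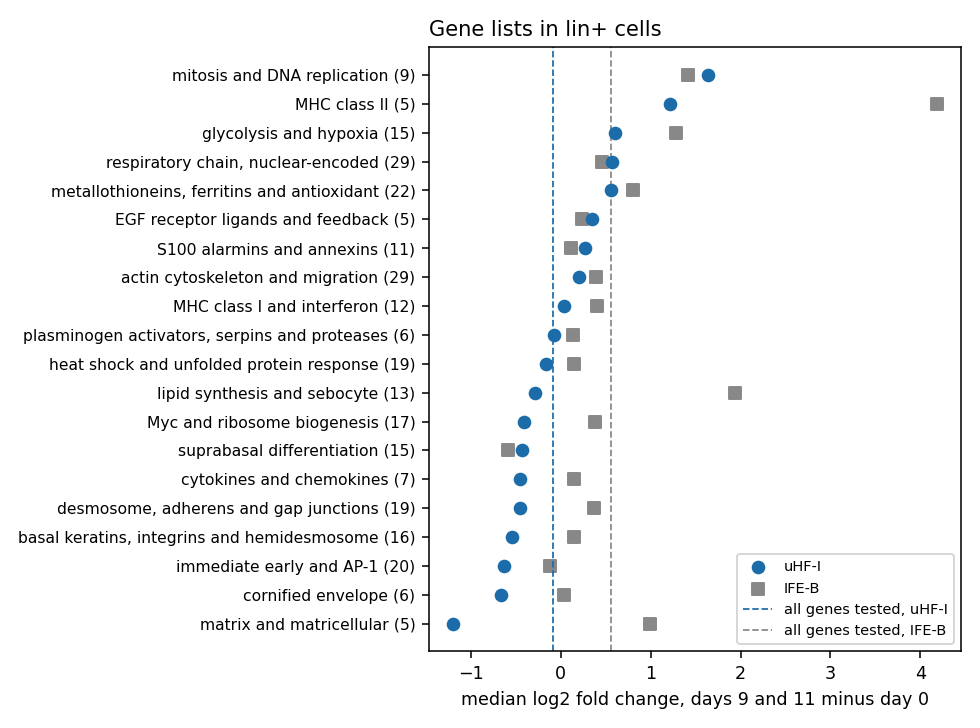
Median late log2 fold change (x axis) of each functional gene list (y axis, with the number of genes tested in uHF-I cells) in lin+ uHF-I cells (blue circles) and lin+ IFE-B cells (grey squares), with dashed lines at the median of all genes tested, −0.08 and 0.56. Respiratory chain, glycolysis and antioxidant lists lie at 0.57, 0.60 and 0.56 in uHF-I cells, to the right of their dashed line, a distance that without replicate 1 of day 0 is 0.58, 0.037 and 0.042; the immediate early and cornified envelope lists lie at −0.63 and −0.66.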

How the data were processed

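Cells were Smart-seq2 libraries, each a GEO sample. The authors trimmed reads with Trimmomatic (0.27), aligned them to GRCm38 with STAR (2.2), counted RefSeq genes with featureCounts and clustered cells with Seurat. In the deposited table the 222 first-batch cells hold read counts and the 462 second-batch cells RPKM, as their values show, although the methods do not mention RPKM. The deposited annotation gave other values used here: identity, cluster, lineage, day and batch. Reads of the second batch were recovered with gene lengths found from cells deposited in both units (99.97% of values whole within 0.02, lowest cell 99.71%). Of 25001 genes, 19639 had values in both batches, 344 of them merged over symbols.

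Values were scaled to 1000000 per cell, averaged over a set, and tested as log2(value + 1) with limma (3.58.1, trend, moderated variances, 3 residual and 4.47 prior degrees of freedom) in R (4.3.3), days 9 and 11 against day 0 with batch as covariate, at a Benjamini-Hochberg threshold of 0.05. Batch equals the replicate number, so it is the replicate block. The deposited batch labels give this pairing, and deviations of same-numbered sets from the mean of their day correlated at 0.20 (days 0 and 9), 0.17 (days 0 and 11) and 0.18 (days 9 and 11). Same-numbered sets also share the unit of their batch, so these correlations cannot show a pairing of mice. edgeR (4.0.16) ran on sums of counts and recovered reads. Genes were named by rule, up to 12 per direction above 20 ppm, filled by smallest p with 1 direction in all late sets. Up to 4 per list were considered. The rule also took 35 genes that the study names for lin+ cells, and up to 6 per direction for the difference from IFE-B. Further members of the lists, among them *Krt5*, *Ndufa2*, *Ndufs1*, *Uqcrb*, *Cox4i1* and *Atf3*, were named after their values were seen. The members and the 32 gene lists were chosen with earlier results of these data known. No list was given a set test. The separate tables of first-batch cells were used for gene lengths only, and cells of day 6 and lineage-negative cells were not analysed here. A few genes that the rule named are not reported here.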

Additional observations from a re-analysis of the deposited data

Results flagged for a closer look

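For each of 75 genes described singly, the 4 late sets were compared as log2 differences from the day 0 set of their batch, and a set was singled out where its gap to the nearest other set was too large a part of the range by Dixon's test. Both late sets of a batch were set against the same day 0 set, so the differences are not independent and the chance rate is not known. A gene without a read in any late set gives tied differences and could not be singled out. Replicate 2 of day 9 stood apart for *Defb6* (0.30, the other sets being lower), *Itga6* (−3.29, lower than the others) and *Hspb1* (−0.77, the smallest decrease). Replicate 1 of day 9 stood apart for *Krt15* (−4.26), *Atf3* (1.77) and *Fam81a* (4.53). Replicate 2 of day 11 stood apart for *Rdh11* (−1.64). For no gene did the late effect differ between uHF-I and IFE-B cells past the threshold.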

How the results depend on the processing

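The count of genes past the threshold for late wounds, 0, became 2 without the batch as replicate block (*Igfl3* and *Mapk13*, adjusted p 0.0290 each), 2 with sets weighted by their number of cells (*Malat1* and *Mapk13*, 0.0350 each) and 1 in genes read in at least 35 of the 70 cells with log2 values averaged over cells (*Uqcrc1*, 0.0291), a setting chosen after seeing the data. Among list members the count became 1 with weighting and 1 with that added setting. The block changed no other call. The share difference was −6.73 points with the upper follicle identities pooled and −16.2 to −14.1 without each set in turn. Of 1496 values of 75 genes under alternatives, 38 changed sign, and 63 genes had no such change. Averaging log2 values shifted the median of all genes to 0.42, and gave 0.20 for *Myc*, 0.033 for *Epcam*, 0.56 for *Ndufs1*, 1.08 for *Uqcrb* and 1.31 for *Krt5*; *Epcam*, *Uqcrb* and *Krt5* had the same values in genes read in at least 35 cells. Sets of at least 10 cells and the second batch alone both gave −0.97 for *Krt6a*, −0.44 for *Krt16*, −0.12 for *Ccl27a*, 0.12 for *Uqcrb* and 0.14 for *Krt5*. The first batch alone gave −0.47 for *Krt17*, 0.010 for *Dusp1* and −0.18 for *Ctsd*; edgeR gave 0.086 for *Krt5*, and 0.1 added before the log2 gave −0.025 for *Krt6a*. List medians, less that of all genes, changed sign for wound keratins in the second batch (−0.40), the upper follicle list under edgeR (0.40), the basal list in sets of at least 10 cells (0.13) and in the second batch (0.14), the suprabasal list in these (0.20 and 0.25) and in genes read in at least 35 cells with averaged log2 values (0.080), and the immediate early list in the first batch (0.44). Without a change of sign, the respiratory chain list (0.65) had 1.93 with averaged log2 values, 0.39 in genes read in at least 35 cells and 0.95 in the first batch, the actin list (0.29) 0.95, 0.0082 and 0.62, and in the first batch the glycolysis list (0.68) had 1.56 and the antioxidant list (0.64) 1.08, against 0.082 and 0.057 in sets of at least 10 cells. Leaving out each set in turn, *Ccl27a* ranged from −0.12 to 1.74, *Ctsd* from −0.18 to 0.64, *Dusp1* from −2.26 to 0.010, *Itga6* from −0.83 to 2.18, *Krt16* from −0.44 to 3.96, *Krt17* from −0.47 to 1.11, *Krt5* from −0.61 to 0.32, *Krt6a* from −0.97 to 2.41 and *Uqcrb* from −1.64 to 0.12, and the lists from −1.24 to 0.24 (immediate early), −1.10 to 0.30 (suprabasal) −0.76 to 0.083 (upper follicle), 0.28 to 2.28 (wound keratins), −1.43 to −0.0038 (basal), 0.037 to 1.36 (glycolysis), 0.042 to 0.87 (antioxidant), 0.52 to 0.75 (respiratory chain), 0.11 to 0.38 (actin) and −0.88 to −0.21 (cornified envelope). The causes were not tested. With 4 late sets and 2 day 0 sets of 6 to 17 cells, and libraries without molecular identifiers, most fold changes have wide intervals.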

Other observations

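Genes of mitosis and DNA replication were sparse in uHF-I cells: 9 of 25 reached the minimum level, 6 of these had a positive late fold change, and the list summed to 510 and 278 ppm at day 9 and 201 and 770 at day 11, against 451 and 114 at day 0. MHC class II genes summed to 315 and 112 ppm at day 9 and 543 and 952 at day 11, against 37.1 and 370 at day 0, with 5 of 7 tested and a median of 1.21 in uHF-I against 4.18 in IFE-B cells. The Langerhans cell list, which shares *Cd74* and *H2-Aa* with it, had medians of 1.26 and 3.92 in these cells, and 2 leukocyte genes tested in IFE-B cells had a median of 3.69; their part in the values was not tested. Lipid synthesis and sebocyte genes had a median of −0.29 in uHF-I against 1.94 in IFE-B cells, and a median difference of −2.93, where that of all genes was −0.60.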
